A study of Mus musculus with 6 samples.

Results

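The genes that set how much mitochondrial machinery a cell makes were followed in primary mouse chondrocytes with and without knockdown of PKM2, a form of the glycolytic enzyme pyruvate kinase encoded by Pkm. The 10 members were taken by gene name from the deposited table of 55416 genes: the coactivators Ppargc1a, Ppargc1b and Pprc1, the transcription factors Nrf1, Gabpa and Esrra, the mitochondrial transcription factors Tfam, Tfb1m and Tfb2m, and the mitochondrial deacetylase Sirt3. All 10 were found, and all 10 were among the 15269 genes with enough counts to be tested. RNA was sequenced from 3 libraries of cells given a scrambled control siRNA (siNC, genotype given as WT) and 3 given an siRNA against Pkm2 (siPkm2). The chondrocytes came from knee joints and were grown in DMEM/F12 with 10% FBS, and the methods give 50 nM siRNA. The sample labels call the joints neonatal, whereas the methods describe mice several weeks old. The titles name all 3 knockdown libraries siPKM2, but their genotype entries read PKM2, PKM3 and PKM4 knockdown in replicates 1, 2 and 3. Nothing says whether the libraries of a group came from separate animals or cultures, so the p-values measure only the spread between these libraries, which may be technical.

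In the textbook account, the PGC-1 family of coactivators (PGC-1α from Ppargc1a, PGC-1β from Ppargc1b and PRC from Pprc1) binds no DNA itself and works through transcription factors. NRF1, the GABP α subunit encoded by Gabpa (also called NRF2α) and the estrogen-related receptor ERRα encoded by Esrra carry it to nuclear genes for respiratory chain subunits and for the mitochondrial transcription machinery. TFAM then packages mitochondrial DNA and, with TFB2M and the mitochondrial RNA polymerase, starts its transcription, whereas TFB1M methylates the small mitochondrial ribosomal RNA. Cartilage cells live with little oxygen and make much of their ATP by glycolysis.

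The promoters of the 3 members that passed the test with replicate pairing (given below with their values) are shown because several of these factors act on genes of their own network. Windows of 250 bases before and 50 after each annotated start were taken from RefSeq on GRCm38.p6, which matched 9 of the 10 members. Capitals mark a match to 1 of the 4 motifs searched. Esrra (ENSMUSG00000024955) spans bases 6910977 to 6921813 of chromosome 19 on the minus strand in GENCODE M21 (GRCm38), Ppargc1a (ENSMUSG00000029167) bases 51454250 to 51567726 of chromosome 5 on the minus strand, and Pprc1 (ENSMUSG00000055491) bases 46044886 to 46072915 of chromosome 19 on the plus strand. The Esrra and Ppargc1a windows lie across the start of these spans, whereas the Pprc1 window lies inside its span, since GENCODE also lists a start further upstream than the RefSeq one.

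Esrra (chr19:6921759-6922058, minus strand): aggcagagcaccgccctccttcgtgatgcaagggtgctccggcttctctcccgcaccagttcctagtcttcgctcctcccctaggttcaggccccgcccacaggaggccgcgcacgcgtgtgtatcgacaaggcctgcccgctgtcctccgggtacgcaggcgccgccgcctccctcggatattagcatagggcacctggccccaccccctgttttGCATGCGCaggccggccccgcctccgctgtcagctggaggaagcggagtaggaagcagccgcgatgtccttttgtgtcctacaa

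Ppargc1a (chr5:51567676-51567975, minus strand): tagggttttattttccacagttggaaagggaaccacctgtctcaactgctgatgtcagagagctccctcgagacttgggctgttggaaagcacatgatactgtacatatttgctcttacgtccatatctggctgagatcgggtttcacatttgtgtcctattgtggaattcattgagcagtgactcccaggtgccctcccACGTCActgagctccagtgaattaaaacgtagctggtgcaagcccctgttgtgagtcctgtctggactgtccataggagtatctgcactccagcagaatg

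Pprc1 (chr19:46056289-46056588, plus strand): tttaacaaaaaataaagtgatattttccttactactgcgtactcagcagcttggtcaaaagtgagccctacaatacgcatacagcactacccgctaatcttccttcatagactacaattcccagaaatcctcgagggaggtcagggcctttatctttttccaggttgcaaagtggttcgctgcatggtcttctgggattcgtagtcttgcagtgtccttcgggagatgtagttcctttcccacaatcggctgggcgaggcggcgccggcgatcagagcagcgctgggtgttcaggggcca

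The motifs were searched on both strands, and positions count the first transcribed base as +1 and the base before it as -1. The NRF1 half-site GCATGCGC lay in the Esrra window at position -34 and in that of Tfb2m at position 14, and it occurred in 2.71% of all 32851 promoter windows. The GABP core CCGGAAG lay in the windows of Tfam at position -47, Sirt3 at position -85 and Gabpa itself at position -93, and in 8.86% of all windows. The CRE half-site TGACGT lay in the Ppargc1a window at position -50 on the other strand, where it reads ACGTCA, and in 7.51% of all windows. The ERR half-site AAGGTCA was in no member's window and in 4.72% of all windows. The windows of Pprc1, Nrf1 and Tfb1m held none of these letters, and no window of a member held more than 1 match. The Esrra window was 66.0% G and C and that of Ppargc1a 48.7%, beside a median of 52.7% over all windows.

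The study also measured Tfam, Ppargc1a and Nrf1 by quantitative PCR. It reports these for IL-1β-stimulated chondrocytes from Pkm2 knockout and control mice, not for the siRNA comparison read here. The primers show which transcripts that assay reads. Each forward primer is followed by its reverse primer, both 5′ to 3′.

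Tfam forward: aacacccagatgcaaaactttca

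Tfam reverse: gacttggagttagctgctcttt

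Ppargc1a forward: tatggagtgacatagagtgtgct

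Ppargc1a reverse: gtcgctacaccacttcaatcc

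Nrf1 forward: agcacggagtgacccaaac

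Nrf1 reverse: aggatgtccgagtcatcataaga

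In the GENCODE M21 transcripts the Tfam pair bounded 162 bases from exon 2 to exon 4 and matched 4 of 4 protein-coding transcripts. The Ppargc1a pair bounded 143 bases across exons 1 and 2 and matched 2 of its 3 protein-coding transcripts. The Nrf1 pair bounded 169 bases within exon 3 and matched 15 of 17 protein-coding transcripts. The sequencing counts cover every annotated transcript of a gene together.

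The libraries held between 22316996 and 25691029 estimated counts. Pkm, the targeted gene, was at 2335, 2746 and 1674 CPM in the siNC libraries and at 336, 541 and 309 CPM in the siPkm2 libraries. Here CPM is the count normalized to library size by TMM factors, and the 3 values of a group follow the order of replicates 1, 2 and 3 throughout. The log2 fold change was -2.51 (SE 0.33) with an adjusted p of 0.0738, or 0.00932 with the replicate number as a block. Gene counts do not separate the PKM1 and PKM2 forms. Chondrocyte markers were abundant in sum (Col2a1 between 8526 and 36071 CPM), and each list of other cells summed to less in every library. Marker by marker this did not hold. In siNC replicate 2 the fibroblast marker Col1a1 was at 3070 CPM and the chondrocyte marker Acan at 233 CPM. Under 1 CPM in every library were 4 of 8 macrophage markers (Adgre1 among them), 4 of 6 endothelial (Pecam1), 3 of 7 muscle (Myog), 2 of 6 osteoblast (Bglap), 3 of 6 adipocyte (Lep) and 1 of 7 fibroblast markers (Pi16). The lists summed in siNC to 9.06 to 62.7 CPM for macrophages, 34.7 to 423 for osteoblasts, 16.9 to 92.4 for adipocytes and 4696 to 8724 for fibroblasts, and in siPkm2 to 11.5 to 39.96, 43.7 to 171, 14.5 to 57.0 and 3309 to 7286 CPM. The most abundant of these were Col1a1 and Col3a1 of the fibroblast list, with Col1a1 at 1404 to 5727 CPM, and the osteoblast marker Ibsp reached 339 CPM. Fabp4 of the adipocyte list reached 61.5 CPM and Cd68 of the macrophage list 55.5 CPM. With the block, 2 fibroblast markers, 1 chondrocyte marker and 1 muscle marker were called higher, beside 12.3% of all genes. Called lower were 2 adipocyte markers, 1 osteoblast marker and 1 muscle marker, beside 10.8% of all genes. Replicate 2 stood apart in both groups: the 12 chondrocyte markers summed to 11700 and 16313 CPM there against 48491 to 57686 in the other 4 libraries, and the inflammatory list summed to 13654 and 14266 CPM against 341 to 541. The macrophage list too was highest in replicate 2, at 62.7 and 39.96 CPM against 9.06 to 16.6 in the other 4 libraries. The interferon-stimulated list summed to 174, 3450 and 229 CPM in siNC against 2286, 6150 and 1839 CPM in siPkm2, so that within each pair it was higher after the knockdown, and 11 of its 25 genes were called higher with the block, beside 12.3% of all genes. Whether these differences have a part in the values below was not tested. In bulk RNA a lower level in each cell and fewer cells that express a gene cannot be told apart.

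Per transcript length, the RNA of Esrra had the highest mean level of the 10 regulators in the control cells and that of Ppargc1a the lowest. In siNC the deposited TPM, a level per length, averaged 26.7 ± 5.15 (SD, n = 3) for Esrra, 22.5 ± 8.07 for Tfam, 21.9 ± 4.89 for Gabpa, 17.9 ± 2.64 for Sirt3 and 16.7 ± 1.00 for Nrf1. Pprc1 at 14.9 ± 1.94, Tfb2m at 14.8 ± 3.78 and Tfb1m at 10.1 ± 3.86 followed. Ppargc1b at 2.28 ± 2.63 and Ppargc1a at 0.587 ± 0.0651 TPM had the lowest means. In siNC replicate 2, however, Ppargc1b reached 5.32 TPM, near the 5.67 TPM of Tfb1m there. Each gene's siNC libraries overlapped those of its neighbour in this order except between Tfb1m and Ppargc1b, so neighbours within the upper 8 genes were not separated. Genes further apart were in part: every siNC value of Esrra lay above every one of Sirt3, Nrf1, Pprc1, Tfb2m and Tfb1m. In siPkm2 the highest mean passed to Tfam at 23.9 ± 4.31 TPM, with Esrra at 15.0 ± 4.62 TPM.

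**Figure D1:**
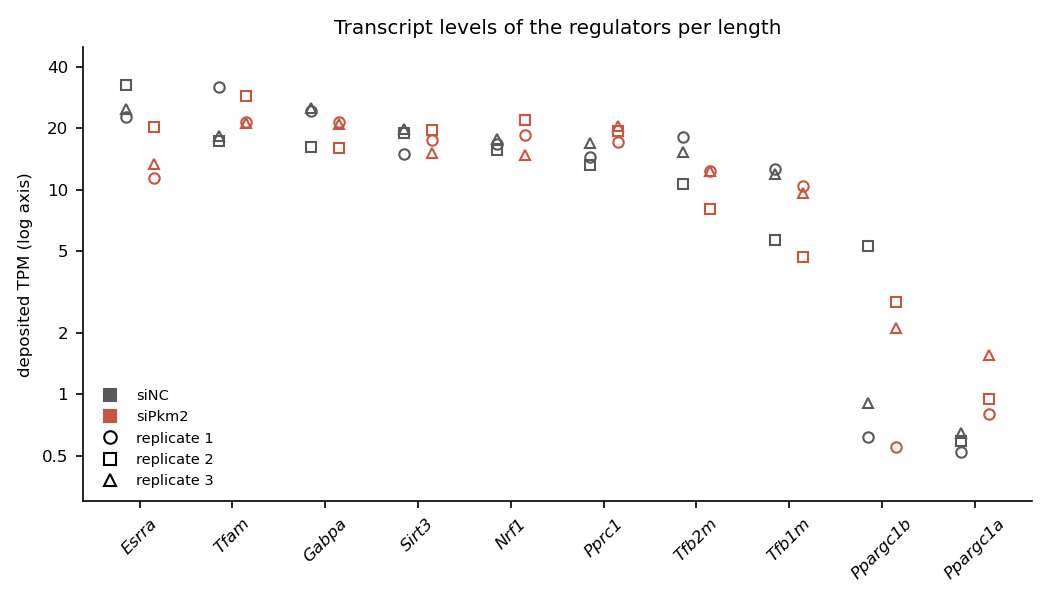
Deposited TPM (log axis) of the 10 regulators in each library, ordered by the siNC mean, with siNC in grey, siPkm2 in red and the marker shape giving the replicate number. The other 8 genes lie between 4.69 and 32.56 TPM in every library. Ppargc1a lies below that range throughout. Ppargc1b is spread from 0.55 to 5.32, and its highest value, in siNC replicate 2, lies within that range.

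No member passed the test between the groups. With the group as the only term, edgeR gave 0 of the 10 an adjusted p under 0.05, and likewise 0 of all 15269 genes (0%), while 2 of the 10, Ppargc1a and Esrra, and 2690 of all genes (17.6%) had an unadjusted p under 0.05. The replicate numbers were taken as pairs, since the deviations of same-numbered libraries from their group means were correlated across genes. This choice rests on the same data, and no label says what a number stands for. With the number as a block, 2 of the 10 rose (Ppargc1a and Pprc1) beside 12.3% of all genes, and 1 fell (Esrra) beside 10.8%. None of the 10 passed the study's threshold, which also asks for a fold over 2 and was met by 5.83% of all genes with the block. The median log2 fold change of the members was -0.07 against -0.02 over all genes. Of the members 5 were positive and 5 negative, beside 7341 and 7928 of all genes.

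**Figure D2:**
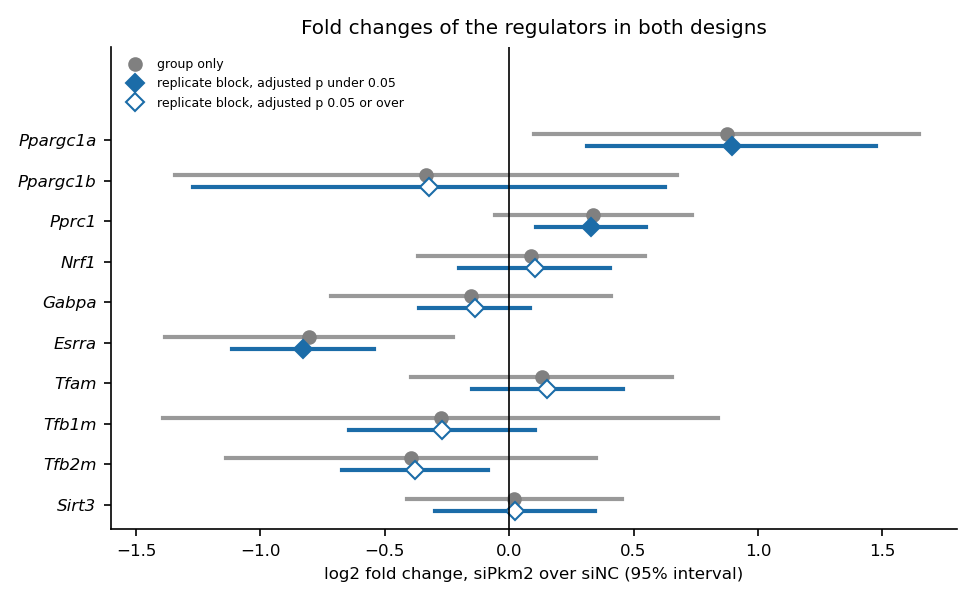
Log2 fold change of each regulator, siPkm2 over siNC, with its 95% interval in the group-only fit (grey circles) and with the replicate block (blue diamonds, filled where the adjusted p was under 0.05). With the block the filled diamonds are Ppargc1a at 0.89, Pprc1 at 0.33 and Esrra at -0.83, and its intervals are narrower than the group-only ones for all 10 genes.

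Of the coactivators, Ppargc1a was scarce but higher in every siPkm2 library. It is the family member induced by cold, exercise and fasting through CREB and AMPK in other tissues. Its level was 1.60, 1.70 and 2.58 CPM in siNC against 3.17, 3.42 and 4.20 CPM in siPkm2. The lowest knockdown library lay above the highest control library, a separation in this direction that 12.0% of all genes showed. The means were 1.96 ± 0.541 and 3.60 ± 0.539 CPM (SD, n = 3), a 1.84-fold higher level. The log2 fold change was 0.88 (SE 0.32, adjusted p = 0.236), and with the block it was 0.89 (SE 0.23, 95% interval 0.31 to 1.48, adjusted p = 0.0462). These values rest on 40 to 92 counts per library, whose counting error alone was 10.4% to 15.8%. On log2(TPM + 0.5), a scale that understates changes of low genes, the blocked difference was 0.53 (limma, adjusted p = 0.111), and DESeq2 with the block gave an adjusted p of 0.0594.

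Pprc1, the coactivator of the family that responds to serum and growth signals, supplied most of the coactivator RNA. It made up 69.1% to 92.7% of the summed TPM of the 3 coactivators, against 3.09% to 6.40% for Ppargc1a and 2.97% to 27.8% for Ppargc1b. Its level was 41.8, 36.0 and 42.2 CPM in siNC against 53.7, 41.3 and 56.8 CPM in siPkm2. Every pair rose, by log2 differences of 0.36, 0.20 and 0.43, although siPkm2 replicate 2 lay below 2 of the siNC libraries. In TPM the groups narrowly did not overlap, with 13.20 to 17.01 in siNC and 17.19 to 20.58 in siPkm2. How many of all genes were so separated in TPM was not counted. In CPM 12.0% were separated in this direction, and Pprc1 was not among them. The library that overlapped in CPM, siPkm2 replicate 2, had the lowest count per TPM of Pprc1 among the 6 libraries. On the log2 scale the difference was 0.34 (SE 0.16, adjusted p = 0.346), and with the block it was 0.33 (SE 0.09, adjusted p = 0.0497), just inside the threshold. With the block, DESeq2 gave an adjusted p of 0.06 and limma on log2(TPM + 0.5) one of 0.107, both outside it.

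Ppargc1b, which encodes PGC-1β, gave no direction. Its 29, 52 and 27 counts in siNC and 19, 28 and 34 in siPkm2 corresponded to 1.16, 2.10 and 1.18 CPM and to 0.886, 1.09 and 1.55 CPM. It was lower in pairs 1 and 2 and higher in pair 3, and the log2 fold change of -0.33 had a 95% interval of -1.34 to 0.68. Its deposited TPM did not follow its counts: 0.62, 5.32 and 0.91 in siNC and 0.55, 2.82 and 2.10 in siPkm2. The count per TPM, which rises with the transcript length that the authors' quantification assigned, varied 4.48-fold between its libraries, more than in 99.3% of genes. The same ratio varied 1.53-fold for Ppargc1a, 1.57-fold for Tfam, 1.41-fold for Nrf1 and 1.38-fold for Pprc1, beside a median of 1.11-fold over all genes, and only 1.03-fold for Esrra.

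**Figure D3:**
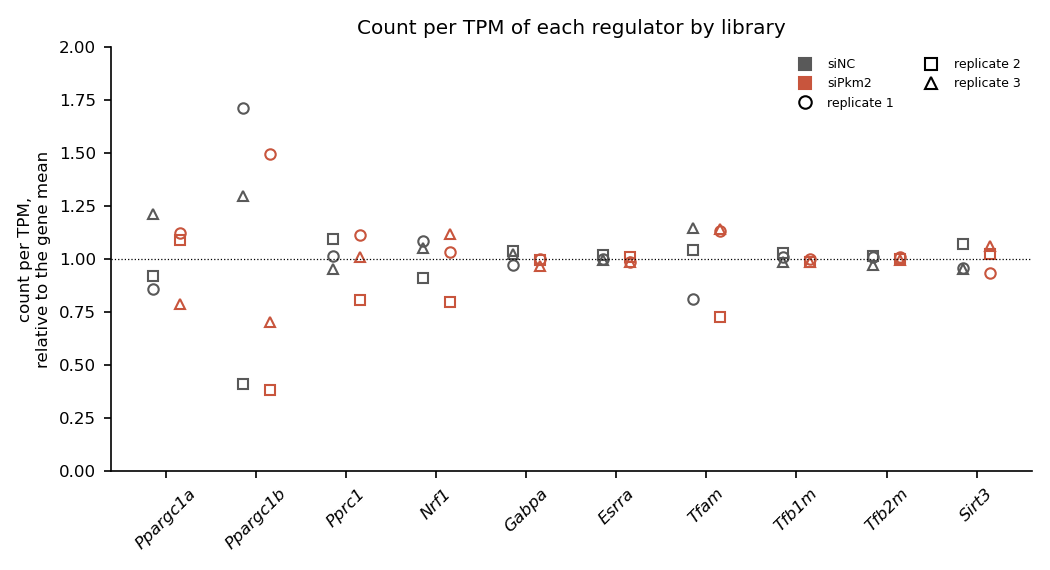
Deposited count per TPM of each regulator in each library, relative to that gene's mean over the 6 libraries, after division by the library median (siNC grey, siPkm2 red, marker shape for the replicate number). Ppargc1b spreads 4.48-fold with both replicate 2 libraries lowest, while Esrra, Tfb1m and Tfb2m spread by at most 1.04-fold.

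Esrra showed the clearest difference of the 10. ERRα is the orphan nuclear receptor through which PGC-1α acts on genes of oxidative phosphorylation and the citric acid cycle. Control libraries held 30.2, 38.7 and 30.2 CPM of it, and knockdown libraries 14.8, 25.0 and 16.9 CPM. All 3 knockdown libraries lay below all 3 controls, as for 12.3% of all genes. The means of 33.0 ± 4.89 and 18.9 ± 5.40 CPM (SD, n = 3) differed 1.75-fold. The log2 fold change was -0.80 (SE 0.24, 95% interval -1.38 to -0.23, adjusted p = 0.18), and with the block it was -0.83 (SE 0.11, 95% interval -1.11 to -0.54, adjusted p = 0.0142). The 3 pairs fell by 1.03, 0.63 and 0.84 on the log2 scale. Replicate 2 had the highest Esrra level of each group. The deposited TPM gave the same separation, with 22.75 to 32.56 in siNC and 11.43 to 20.24 in siPkm2, and the blocked test on TPM called it as well (limma, adjusted p = 0.0218).

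The 3 blocked calls depend on which pairs are fitted. With a pair left out, the log2 fold change ran from -0.94 to -0.73 for Esrra, from 0.83 to 1.00 for Ppargc1a and from 0.28 to 0.39 for Pprc1, and the adjusted p ran from 0.00157 to 0.106 for Esrra, from 0.0564 to 0.208 for Ppargc1a and from 0.0128 to 0.288 for Pprc1. Without replicate 2, the pair that stood apart, it was 0.00157 for Esrra, 0.0128 for Pprc1 and 0.0564 for Ppargc1a, so the first and the second kept their calls and Ppargc1a did not. Without replicate 1 or without replicate 3, no gene of the whole table passed the threshold. By exact permutation of the libraries, two-sided, no gene can reach a p under 0.1 in this design, and Esrra and Ppargc1a were at that value.

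The other DNA-binding factors differed little between the groups. Nrf1, the nuclear respiratory factor, was at 27.6, 18.9 and 25.7 CPM in siNC and at 28.4, 24.3 and 24.1 CPM in siPkm2. These ranges overlapped, and the log2 fold change was 0.09 (95% interval -0.37 to 0.54). Gabpa was at 64.2, 40.2 and 64.2 CPM in siNC and at 57.8, 40.3 and 53.3 CPM in siPkm2, where replicate 2 was the lowest library of each group. Its log2 fold change was -0.15 (95% interval -0.72 to 0.41). With the block the intervals were -0.20 to 0.41 for Nrf1 and -0.36 to 0.08 for Gabpa, so a change of 2-fold lay outside both.

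Among the factors that act inside the organelle, Tfam gave no common direction. It was at 28.5, 17.5 and 21.1 CPM in siNC and at 26.4, 21.4 and 25.9 CPM in siPkm2, lower in pair 1 and higher in pairs 2 and 3. Its fitted log2 fold change was 0.13 (SE 0.22, adjusted p = 0.812), and with the block its 95% interval was -0.15 to 0.46. Tfb2m, the partner of the mitochondrial RNA polymerase at the promoter, was at 27.5, 14.2 and 20.5 CPM in siNC and at 18.5, 11.1 and 17.8 CPM in siPkm2. It was lower in all 3 pairs, by log2 differences of -0.58, -0.35 and -0.20, and its blocked log2 fold change of -0.38 (SE 0.12, adjusted p = 0.0693) stayed outside the threshold. Tfb1m, the ribosomal RNA methyltransferase, was at 10.4, 4.13 and 8.80 CPM in siNC and at 8.39, 3.46 and 7.40 CPM in siPkm2. It too was lower in all 3 pairs, with a blocked log2 fold change of -0.27 (SE 0.15, adjusted p = 0.232). Esrra, Tfb1m and Tfb2m made 3 of 10 members lower in every pair, where 30.6% of all genes were, and Ppargc1a and Pprc1 made 2 of 10 higher in every pair, where 30.5% were.

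Sirt3, the deacetylase that acts on enzymes of the mitochondrial matrix, was the most even of the 10. It was at 11.0, 13.8 and 13.3 CPM in siNC and at 12.4, 14.3 and 11.9 CPM in siPkm2. The log2 fold change was 0.02 with a 95% interval of -0.41 to 0.45, or -0.30 to 0.34 with the block.

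**Figure D4:**
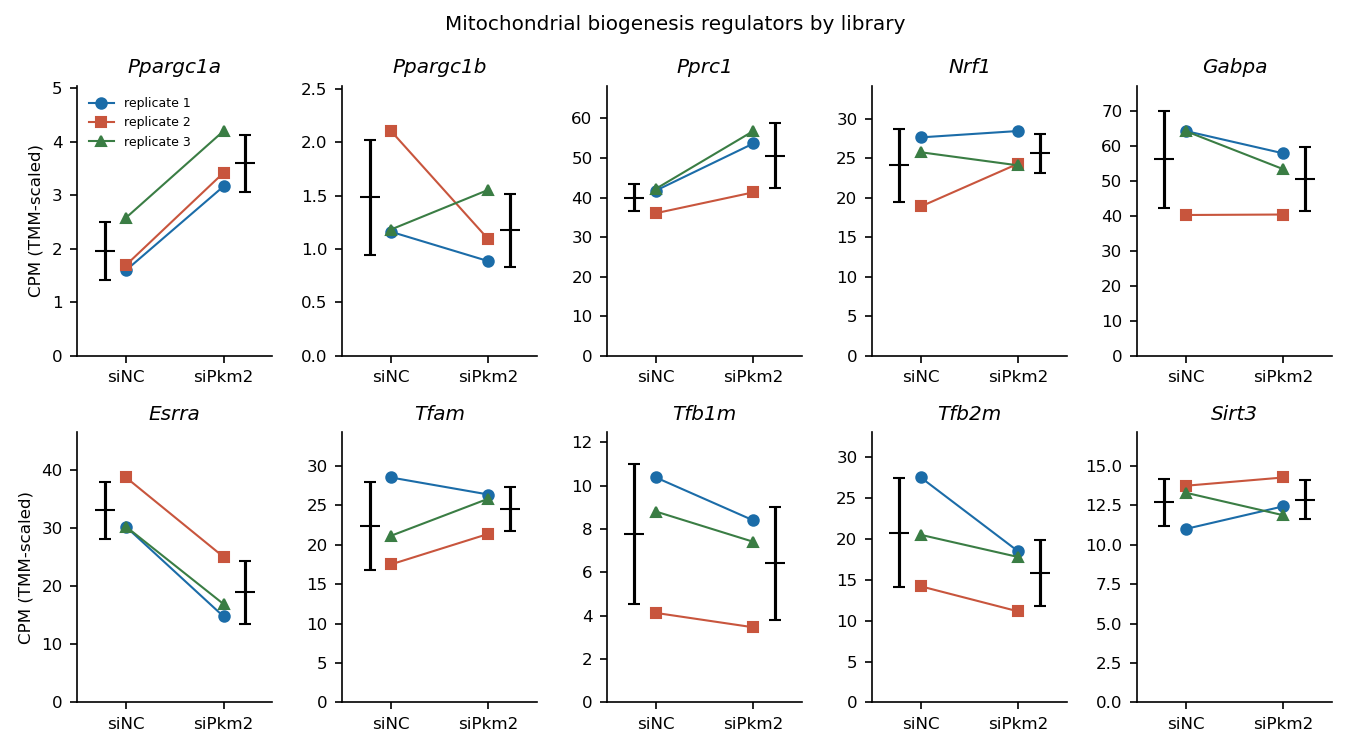
TMM-scaled CPM of each regulator in the 3 siNC and 3 siPkm2 libraries, with lines joining libraries of the same replicate number and black bars giving the mean ± SD of each group. In all 3 pairs siPkm2 is the higher library for Ppargc1a and Pprc1 and the lower one for Esrra, Tfb1m and Tfb2m. Replicate 2 (red squares) is the lowest library of each group for Pprc1, Gabpa, Tfam, Tfb1m and Tfb2m.

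In 5 of the 10 members replicate 2 stood apart in both groups. Both replicate 2 libraries lay below the other 4 for Pprc1, Gabpa, Tfb1m and Tfb2m, as for 18.4% of all genes, and above them for Sirt3, as for 17.7%. The gap was largest for Tfb1m, whose replicate 2 lay 1.22 below the mean of replicates 1 and 3 on the log2 scale in siNC and 1.19 below it in siPkm2, several times its blocked difference of -0.27 between the siRNAs. The same 2 libraries had the low chondrocyte and high inflammatory sums given above, and the part of these in the members' levels was not tested.

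The genes around the regulators were read from 6 lists that together held 121 tested genes. None of the 121 was called with the group as the only term. With the block, 16 were higher and 6 lower at an adjusted p under 0.05, beside 12.3% and 10.8% of all genes, so the share of higher calls was near that of all genes and the share of lower calls was smaller. None had a fold over 2, which 5.83% of all genes passed.

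Of the partners and upstream regulators of the coactivators, 30 of 32 were tested, 4 were higher and 2 lower with the block (12.3% and 10.8% of all genes), and their median log2 fold change was 0.03. Prkaa1, the catalytic α1 subunit of the energy sensor AMPK, which phosphorylates PGC-1α, was at 32.0, 40.6 and 30.5 CPM in siNC and at 73.7, 61.4 and 65.4 CPM in siPkm2. All knockdown libraries lay above all controls, as for 12.0% of all genes. The blocked log2 fold change was 0.97 (SE 0.14, adjusted p = 0.0147, or 0.0942 without the block). The AMPK β1 subunit gene Prkab1 rose by 0.46 (adjusted p = 0.0226) and Crtc2, a coactivator of CREB, by 0.41 (adjusted p = 0.0246). Nrip1, the corepressor RIP140 that opposes PGC-1α, and Rxra, a partner of nuclear receptors, fell by 0.48 and 0.46 (adjusted p = 0.0334 and 0.0183). Esrrb and Esrrg, the other estrogen-related receptors, had too few counts to be tested.

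Among 20 genes of mitochondrial DNA transcription and replication 2 were higher and 1 lower with the block (12.3% and 10.8% of all genes), with a median of -0.07. Top1mt, the mitochondrial topoisomerase, was at 5.70 ± 0.917 CPM in siNC and at 10.4 ± 1.17 CPM in siPkm2 (blocked log2 fold change 0.87, adjusted p = 0.0182). Polg, the catalytic subunit of the mitochondrial DNA polymerase, rose by 0.44 (adjusted p = 0.0309), and the primase-polymerase gene Primpol fell by 0.54 (adjusted p = 0.0367). Of 18 tested genes of mitochondrial RNA processing and decay, 2 were higher and 0 lower with the block (12.3% and 10.8% of all genes). Pnpt1 rose by 0.71 (adjusted p = 0.0148) and Supv3l1 by 0.54 (adjusted p = 0.0224). These encode the subunits of the complex that degrades mitochondrial RNA, and Pnpt1 is also known as an interferon-induced gene.

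Textbook targets of NRF1, GABP and ERRα moved in both directions. Of 26, 5 were higher and 2 lower with the block (12.3% and 10.8% of all genes), and the median log2 fold change was 0.19 against -0.02 over all genes. Positive were 18 of 26, beside 7341 of all 15269 genes. The other lists had 16 of 30 positive (partners and upstream regulators), 9 of 20 (mitochondrial DNA), 10 of 18 (mitochondrial RNA), 5 of 15 (SIRT3) and 6 of 13 (mitochondrial genome). Whether any list differs from all genes was not tested. Cycs, which encodes cytochrome c, was at 37.9 ± 7.97 CPM in siNC and at 60.8 ± 14.1 CPM in siPkm2 (blocked log2 fold change 0.68, adjusted p = 0.0133). Idh3a of the citric acid cycle rose by 0.62 (adjusted p = 0.013), and Alas1, the first enzyme of haem synthesis, by 0.52 (adjusted p = 0.0161). Sdhb, the iron-sulfur subunit of complex II, fell by 0.83 (adjusted p = 0.0182), with 62.0, 33.9 and 50.4 CPM in siNC and 29.9, 24.5 and 25.9 CPM in siPkm2.

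Of 15 genes around SIRT3, mostly its substrates, 2 were higher and 1 lower with the block (12.3% and 10.8% of all genes), with a median of -0.14. Ppif (cyclophilin D) rose by 0.43 (adjusted p = 0.0379) and the complex I gene Ndufa9 by 0.40 (adjusted p = 0.0264), while Aldh2 fell by 0.58 (adjusted p = 0.0142). Of the 13 protein genes on the mitochondrial genome, 1 was higher and 0 lower with the block (12.3% and 10.8% of all genes), with a median of -0.03. The gene called was mt-Nd1, with a log2 fold change of 0.39 (adjusted p = 0.0439; 0.634 without the block). Its level was 1240, 646 and 1108 CPM in siNC and 1754, 800 and 1414 CPM in siPkm2, so replicate 2 was again the lowest of each group.

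**Figure D5:**
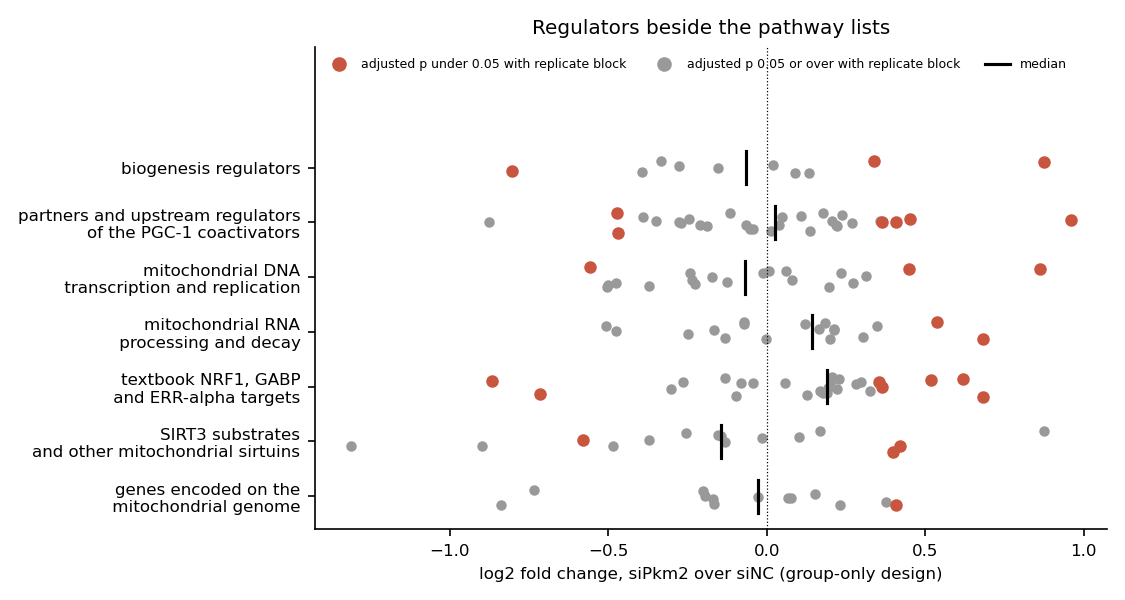
Log2 fold change (siPkm2 over siNC, group-only fit) of the 10 regulators and of the tested genes of 6 pathway lists, 1 point per gene, with a bar at each median. Red points, those with an adjusted p under 0.05 with the replicate block, lie on both sides of 0 in the regulators and in 4 of the lists, and the medians lie between -0.14 and 0.19.

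The genes whose pattern over the 6 libraries was most like that of the 3 members measured by PCR were found by the root mean square difference of centred log2 CPM. For Tfam these were Ndufa13 (0.0311), Polr1h (0.0429) and Fam174a (0.0466). For Nrf1 they were Pdcl (0.0422), Ggact (0.0476) and Casp8ap2 (0.0486). For Ppargc1a they were Tas1r3 (0.0849), Nrp1 (0.104) and Tmem104 (0.122), larger differences for a member that also varied more. Each was picked as the closest of all tested genes over only 6 libraries, so small differences were to be found by the selection alone. The members' own root mean square deviations from their means were 0.239, 0.192 and 0.51 for Tfam, Nrf1 and Ppargc1a.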

How the data were processed

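Primary mouse chondrocytes with siNC or siPkm2 (3 libraries each) were analysed from the deposited tables. Per gene and library the authors deposited an estimated count that is not normalized, and a TPM value, which is scaled per length and to a fixed total in each library. The authors' fold changes, p-values and adjusted p-values were deposited in the same table and were not used. The submitters' processing notes name mm9 and edgeR, while 94.0% of the 55416 identifiers occur in GENCODE M21 on GRCm38, which with RefSeq on GRCm38.p6 gave positions and promoters. The aligner and counting tool are not given in the sources used here.

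The estimated counts, fractional in at least 1 library for 21.4% of genes, were rounded to whole numbers. Libraries held 22316996 to 25691029 counts, so for Ppargc1a and Ppargc1b counting error was a large part of the precision, and for the others the spread between libraries was. Libraries of a group were no duplicates, since 53.6% to 73.7% of genes differed beyond sampling noise. Genes were kept by filterByExpr (15269), scaled by TMM and compared by edgeR 4.0.16's quasi-likelihood test in R 4.3.3 with the group as the only term and Benjamini-Hochberg adjustment over all genes tested. The scripts were tested on simulated data. A call by the study's threshold needs a fold over 2 and an adjusted p under 0.05. Members are compared in CPM with the TMM factors, and levels between genes in TPM.

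The labels number the libraries 1 to 3 in both groups. Deviations from the group means correlated across genes at 0.625, 0.726 and 0.596 for equal numbers and at 0.126 or lower for unequal ones, so the numbers were taken as pairs, a choice based on the data, and the fit with the replicate block is given where it changes a call. The fits were repeated with RLE or upper-quartile factors, with DESeq2 1.42.0, with limma 3.58.1 on log2(TPM + 0.1, 0.5 or 1), with other filters and without single libraries or pairs. The TPM and DESeq2 fits with the block were added after the data were seen.

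The members and lists were chosen with earlier results of these data known. All members, list genes with an adjusted p under 0.05 with the block (up to 3 per direction), Pkm, and the 3 genes most like Tfam, Ppargc1a and Nrf1 are named. The values of 1 such list gene are not reported here. Of the RNA processing list, 1 symbol (Fastkd4) was not matched in the table. The siRNA sequences were not used here.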

Additional observations from a re-analysis of the deposited data

How the results depend on the processing

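No member passed a fold over 2 with an adjusted p under 0.05 in any of the alternatives run. At any fold, the fit with the replicate block called 3 of the 10 where the group-only fit called 0. The block also took the count over all genes from 0 to 890 at a fold over 2 and 3524 at any fold, and the genes of the 6 pathway lists from 0 to 22 at any fold. Pairing is therefore the choice on which the members' calls rest. Over all genes the count was 430 by DESeq2, 9 with no filter on low counts, 3 with upper-quartile factors and 3 with at least 10 counts in every library. It was 1 in each of the 4 limma fits on TPM without the block, 694 on TPM with the block and 1028 by DESeq2 with the block. Leaving out 1 library gave 0 to 105 genes, the highest without siNC replicate 2, and the block with a pair left out gave 0 to 1639, the highest without replicate 2. In the pathway lists the same omissions gave 0 to 1 and 0 to 2 genes.

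The log2 fold change of Pkm was -2.50 by DESeq2, -2.53 with the block, -2.53 on TPM with the block and -2.52 by DESeq2 with the block, and passed the threshold in each. It ran from -2.80 to -2.34 with a library left out and from -2.63 to -2.39 with a pair left out, and passed without siNC replicate 2 and without the pair of replicate 2.

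Esrra, Ppargc1a, Pprc1, Gabpa and Tfb2m kept their direction in every alternative run. The other 5 members changed sign in at least 1 alternative. Sirt3 was -0.047 with upper-quartile factors and, in the limma fits on TPM, -0.034 at a pseudocount of 0.5 (with or without the block or the minimum of 1 TPM), -0.035 at 0.1 and -0.034 at 1. It ran from -0.065 to 0.084 with a library left out, and was -0.053 without the pair of replicate 1 and -0.0034 without that of replicate 2. Ppargc1b was 0.028 on log2(TPM + 0.1), ran from -0.58 to 0.0072 with a library left out, and was 0.011 without the pair of replicate 2. Nrf1 ran from -0.057 to 0.21 and was -0.036 without the pair of replicate 2, Tfam ran from -0.016 to 0.35, and Tfb1m from -0.58 to 0.028. The cause of these changes was not tested. Depth limits Ppargc1a and Ppargc1b, with 19 to 92 counts per library.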

Other observations

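Genes with a motif of these regulators in the promoter window were described over the whole table, with no test. The 2108 tested genes with the GABP core CCGGAAG had a median log2 fold change of 0.04, 54.9% of them positive, and 15.6% were called higher and 9.25% lower with the replicate block. For all 11119 tested genes with a promoter window the median was -0.01, with 49.2% positive, 13.2% higher and 11.5% lower. The 625 genes with the NRF1 half-site GCATGCGC had a median of 0.00, with 50.1% positive, 13.8% higher and 11.4% lower. The 430 genes with the ERR half-site AAGGTCA had a median of 0.00, with 50.2% positive, 12.1% higher and 11.9% lower. The 1446 genes with the CRE half-site TGACGT had a median of 0.04, with 54.8% positive, 14.0% higher and 9.82% lower, so the GABP core was not alone in its share of positive genes.

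The TPM ratio of Tfam to Tfb2m was 1.75, 1.62 and 1.19 in siNC replicates 1, 2 and 3 and 1.73, 3.59 and 1.72 in siPkm2 replicates 1, 2 and 3. The library at 3.59 had 28.85 TPM of Tfam against 21.42 and 21.35 in the other siPkm2 libraries and 8.04 TPM of Tfb2m against 12.41 and 12.44, and the count per TPM of Tfam was lowest there of the 6.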
